A study of Homo sapiens with 8 samples.

Results

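FGR, LYN, FES, SYK and BTK are 5 non-receptor tyrosine kinases of blood cells. They were chosen by gene symbol, with earlier results of these data in view for all 4 treatments, and each symbol matched 1 of the 60240 genes in the deposited table. Because the normalised values under all treatments were known when the 5 were picked, their levels and fold changes below are descriptions, no p-value is given for them, and whether they passed a threshold is not used as evidence. RNA was taken at 72 h from HL-60 cells, a promyelocytic leukaemia line of human origin labelled as wild type, in 4 groups of 2 libraries. The combination group received decitabine and RG3039 together, the decitabine group decitabine alone, the RG3039 group RG3039 alone, and the control group the solvent DMSO. Decitabine, a cytosine analogue that traps DNA methyltransferases, was added 3 times at 100 nM, and RG3039, an inhibitor of the mRNA cap scavenger enzyme DcpS, once at 2 µM. The replicates are duplicate wells of 1 line, so errors and p-values below measure the spread between wells, which may be technical, and fewer cells of a type and less RNA per cell cannot be told apart in such bulk samples.

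SRC-family kinases sit at the inner face of the membrane and phosphorylate tyrosines in the ITAM motifs of immune receptor adaptors. SYK binds the phosphorylated ITAM through its paired SH2 domains and becomes active, and kinases of the TEC family such as BTK then act with adaptors on phospholipase C gamma. In neutrophils and monocytes FGR and LYN serve Fc receptor and integrin signalling. LYN also phosphorylates the ITIM motifs of inhibitory receptors, which recruit phosphatases that end the signal. FES belongs to a separate family with an F-BAR domain and is found mainly in myeloid cells. Inactivating mutations of BTK cause X-linked agammaglobulinaemia, a loss of B cells.

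The libraries held an estimated 20711813 to 40948112 reads and listed 22205 to 25549 genes above 0. Each library consists of 3′ tags, so a value counts transcripts near their polyadenylated end and does not tell from which promoter they started. The 7 promyelocyte markers, among them MPO and ELANE, were all tested and summed to 87158 and 97164 normalised reads in the combination, 157393 and 197144 under decitabine, 104022 and 119220 under RG3039 and 159771 and 196847 in DMSO. MPO made up most of each sum, at 69218 and 74639 in the combination and 130999 and 165580 in DMSO, and the 7 did not move alike. In the combination against DMSO 1 of them was called higher and 3 lower (14.3% and 42.9%, beside 11.4% and 12.7% of all genes). The higher one was CSF3R, at 2946 and 2923 against 1636 and 2131 in DMSO. The part of these markers in the results below was not tested. Sums for markers of other lineages were at most 827, and MS4A1 of B cells and HBB, PF4 and PPBP of red cells and platelets were at 0 in all 8 libraries.

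All 5 transcripts were detected in every library, but they did not move alike. FGR was higher in every treated library than in DMSO, about 3.72 times as high in the combination by group means. LYN and FES were highest in the combination. BTK was highest in DMSO and lowest with RG3039, and SYK spanned 1.2-fold between its highest and lowest group means. Groups of 2 libraries can lie apart by chance, and the share of all genes that did so was not counted. Nothing is read here or below from the libraries of a group lying above or below those of another.

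**Figure D1:**
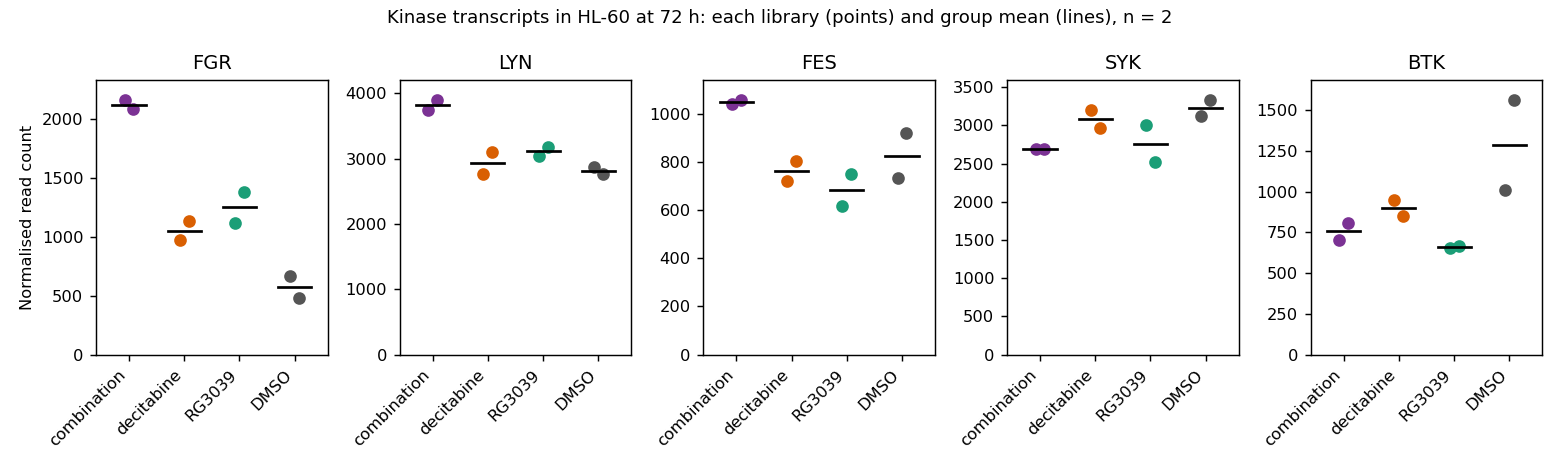
Normalised read counts (y axis, from 0) of FGR, LYN, FES, SYK and BTK in the combination, decitabine, RG3039 and DMSO groups. Points are the 2 libraries of a group and lines their mean. FGR lies at 2160 and 2083 in the combination against 664 and 478 in DMSO, and the DMSO libraries of BTK are far apart at 1007 and 1562.

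FGR (ENSG00000000938.13, chromosome 1, 27612064 to 27635277, minus strand, GENCODE 29 on GRCh38) encodes an SRC-family kinase of granulocytes and monocytes. Its normalised read count was 2160 and 2083 in the combination libraries, 968 and 1130 under decitabine, 1120 and 1382 under RG3039 and 664 and 478 in DMSO. Every combination library exceeded every single-drug library, every single-drug library exceeded both DMSO libraries, and the decitabine and RG3039 ranges overlapped. Group means were 2122 ± 54.9 in the combination, 1049 ± 114 with decitabine, 1251 ± 185 with RG3039 and 571 ± 131 in DMSO (SD, n = 2). On the scale of log2(normalised count + 1), used for all fold changes here, FGR differed from DMSO by 1.91 ± 0.20 with the combination, 0.89 ± 0.20 with decitabine and 1.14 ± 0.20 with RG3039 (± standard error of the limma fit). The combination stood 1.02 ± 0.20 above decitabine and 0.77 ± 0.20 above RG3039. The interaction, which is the effect of RG3039 on top of decitabine minus its effect alone, was -0.12 ± 0.29. It was -0.36 without DMSO replicate 1, and its sign turned without DMSO replicate 2 (0.11) and without RG3039 replicate 2 (0.03).

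The 2 RefSeq promoter windows of FGR and the 2 of BTK are printed here because these genes showed the widest ranges of group means, in opposite directions, and because decitabine acts on CpG methylation, which was not measured in these libraries. Each window runs 5′ to 3′ on the minus strand of GRCh38.p14, from 250 bases before an annotated start to 50 after it, with CpG dinucleotides in capitals. The upstream FGR window is chr1:27635136-27635435 and the internal one chr1:27626548-27626847. For BTK they are chrX:101390747-101391046 and chrX:101386142-101386441.
FGR upstream: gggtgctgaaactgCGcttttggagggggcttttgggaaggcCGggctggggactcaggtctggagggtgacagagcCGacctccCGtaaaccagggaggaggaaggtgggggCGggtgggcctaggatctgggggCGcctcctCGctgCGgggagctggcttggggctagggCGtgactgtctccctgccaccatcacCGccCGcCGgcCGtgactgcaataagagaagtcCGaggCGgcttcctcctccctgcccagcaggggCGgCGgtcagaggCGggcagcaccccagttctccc
FGR internal: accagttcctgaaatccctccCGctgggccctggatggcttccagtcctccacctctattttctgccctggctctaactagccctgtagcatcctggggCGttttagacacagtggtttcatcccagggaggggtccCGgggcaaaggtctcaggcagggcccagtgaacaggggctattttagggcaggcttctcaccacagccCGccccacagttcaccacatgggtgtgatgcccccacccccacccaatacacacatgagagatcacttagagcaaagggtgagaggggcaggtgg
BTK upstream: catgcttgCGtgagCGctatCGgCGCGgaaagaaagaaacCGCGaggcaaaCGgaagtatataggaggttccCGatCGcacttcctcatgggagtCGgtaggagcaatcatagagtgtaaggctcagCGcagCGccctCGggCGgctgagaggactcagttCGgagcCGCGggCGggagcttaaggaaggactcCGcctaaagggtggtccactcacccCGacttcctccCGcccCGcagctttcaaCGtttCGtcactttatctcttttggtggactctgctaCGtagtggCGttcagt
BTK internal: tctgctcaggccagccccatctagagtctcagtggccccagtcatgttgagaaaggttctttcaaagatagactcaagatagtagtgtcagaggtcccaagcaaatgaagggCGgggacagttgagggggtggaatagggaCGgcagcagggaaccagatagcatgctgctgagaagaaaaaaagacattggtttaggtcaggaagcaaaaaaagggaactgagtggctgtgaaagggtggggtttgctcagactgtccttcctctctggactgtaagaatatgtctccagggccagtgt

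The upstream FGR window holds 18 CpGs and the internal one 4, and the BTK windows hold 27 and 2. The median over all 35116 RefSeq windows of the same length was 14. FES has 1 window, with 11 CpGs, and SYK has 3, with 19, 40 and 2. A search of both strands for GAGGAA, the core letters bound by the myeloid factor PU.1, and for GGGCGG, the SP1 box, found both in the upstream FGR window, in both BTK windows and in the SYK window with 40 CpGs. GGGCGG alone was in the internal FGR window and GAGGAA alone in the SYK window with 2 CpGs. GAGGAA occurs in 27.9% and GGGCGG in 45% of all windows, so either match is common. The FES window and the SYK window with 19 CpGs hold neither. These are letter matches in annotated windows, and occupancy was not measured.

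LYN (ENSG00000254087.8, chromosome 8, 55879813 to 56014168, plus strand) encodes the SRC-family kinase with both activating and inhibitory roles. Its normalised read count was 3751 and 3896 in the combination, 2763 and 3097 under decitabine, 3047 and 3180 under RG3039 and 2868 and 2764 in DMSO. Both combination libraries lay above all 6 others, and the decitabine range overlapped those of RG3039 and DMSO. The RG3039 libraries lay just above the DMSO ones. LYN differed from DMSO by 0.44 ± 0.13 in the combination, 0.06 ± 0.13 with decitabine and 0.14 ± 0.13 with RG3039, and its interaction was 0.24 ± 0.19.

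FES (ENSG00000182511.12, chromosome 15, 90883695 to 90895776, plus strand) had values of 1043 and 1058 in the combination, 721 and 805 under decitabine, 616 and 749 under RG3039 and 733 and 920 in DMSO. The combination lay above all other libraries, and the other 3 groups overlapped. Against DMSO the differences were 0.35 ± 0.19 for the combination, -0.11 ± 0.19 for decitabine and -0.27 ± 0.19 for RG3039, and none of them was called. Without DMSO replicate 2 they were 0.52, 0.05 and -0.11, and without DMSO replicate 1 they were 0.19, -0.27 and -0.44. Set against the single drugs, the combination was 0.46 ± 0.19 above decitabine and 0.63 ± 0.19 above RG3039. The interaction of FES was 0.74 ± 0.27. It was not called, nor was any other gene tested, and nothing is read from this.

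SYK (ENSG00000165025.15, chromosome 9, 90801787 to 90898549, plus strand), the kinase that docks on phosphorylated ITAMs, had 2692 and 2685 normalised reads in the combination, 3208 and 2969 under decitabine, 3007 and 2518 under RG3039 and 3122 and 3332 in DMSO. In order of group means DMSO came first, then decitabine, RG3039 and the combination, and each neighbouring pair in that order overlapped. The combination lay below DMSO in both libraries, by 0.26 on the log2 scale (log2 fold change -0.26 ± 0.14).

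BTK (ENSG00000010671.16, chromosome X, 101349447 to 101390796, minus strand), the TEC-family kinase, had 703 and 810 in the combination, 951 and 851 under decitabine, 651 and 665 under RG3039 and 1007 and 1562 in DMSO. All treated libraries were below both DMSO libraries, and no neighbouring groups overlapped in the order DMSO, decitabine, combination and RG3039. The DMSO libraries differed 1.55-fold from each other, the widest gap between replicates of any of the 5 genes. BTK differed from DMSO by -0.73 ± 0.22 with the combination, -0.48 ± 0.22 with decitabine and -0.93 ± 0.22 with RG3039. Without DMSO replicate 2, the library with the high value, these differences were -0.42, -0.16 and -0.61, and the interaction of 0.68 ± 0.31 became 0.36.

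**Figure D2:**
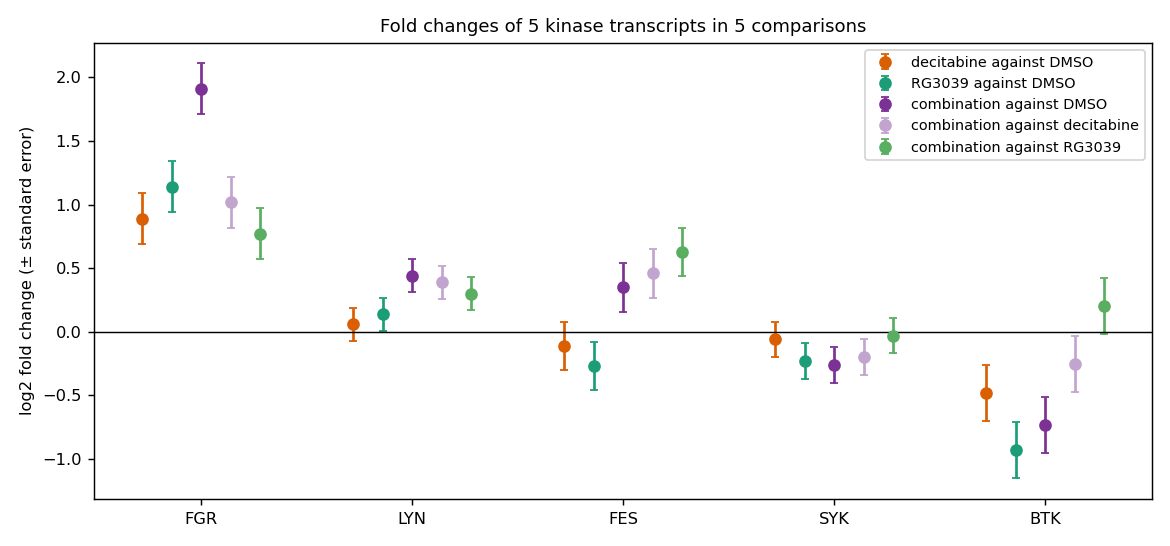
Log2 fold changes (y axis, points with the standard error of the limma fit as bars) of the 5 kinases in 5 comparisons, given by colour. FGR is above 0 in all 5, from 0.77 to 1.91. BTK is below 0 in the 3 comparisons with DMSO, from -0.93 to -0.48, and SYK stays between -0.26 and -0.03.

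A gene was called when its limma adjusted p (Benjamini-Hochberg) over the 17534 genes whose mean reached 10 was under 0.05, a filter that all 5 kinases passed. The counts of called kinases are given beside the share of all tested genes and nothing is read from them, since the 5 were picked with these comparisons known. With decitabine 0 of 5 were called (1 at an unadjusted p under 0.05), against 1.74% of all genes higher and 0.405% lower. With RG3039 FGR was called higher and BTK lower, against 4.53% and 3.59% of all genes. The combination against DMSO had FGR and LYN called higher and BTK lower, where 11.4% of all genes were higher and 12.7% lower. Against decitabine, the combination had FGR called higher, where 3.94% of all genes were higher and 3.39% lower. Against RG3039, 0 of 5 were called (2 at an unadjusted p under 0.05), beside 1.49% of all genes higher and 0.787% lower. In the interaction limma called 0 of 5 kinases (1 at an unadjusted p under 0.05) and 0 of 17534 genes (0% in either direction, 1014 at an unadjusted p under 0.05). The 3 comparisons with DMSO share the DMSO libraries.

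Leaving out 1 library at a time moved the difference of FGR between 1.67 and 2.15 for the combination against DMSO, between 0.66 without DMSO replicate 2 and 1.13 without DMSO replicate 1 for decitabine, and to 0.91 without DMSO replicate 2 for RG3039. The LYN difference in the combination lay between 0.41 and 0.47. BTK ranged from -1.25 to -0.61 with RG3039 and from -1.05 to -0.42 with the combination, the ends being the fits without DMSO replicate 1 and without DMSO replicate 2. With decitabine alone BTK ranged from -0.79 without DMSO replicate 1 to -0.16 without DMSO replicate 2. For the combination against decitabine the FGR difference lay between 0.91 and 1.13. Nothing is read from whether a kinase passed the threshold in such fits, because leaving out 1 library leaves its group with 1.

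**Figure D3:**
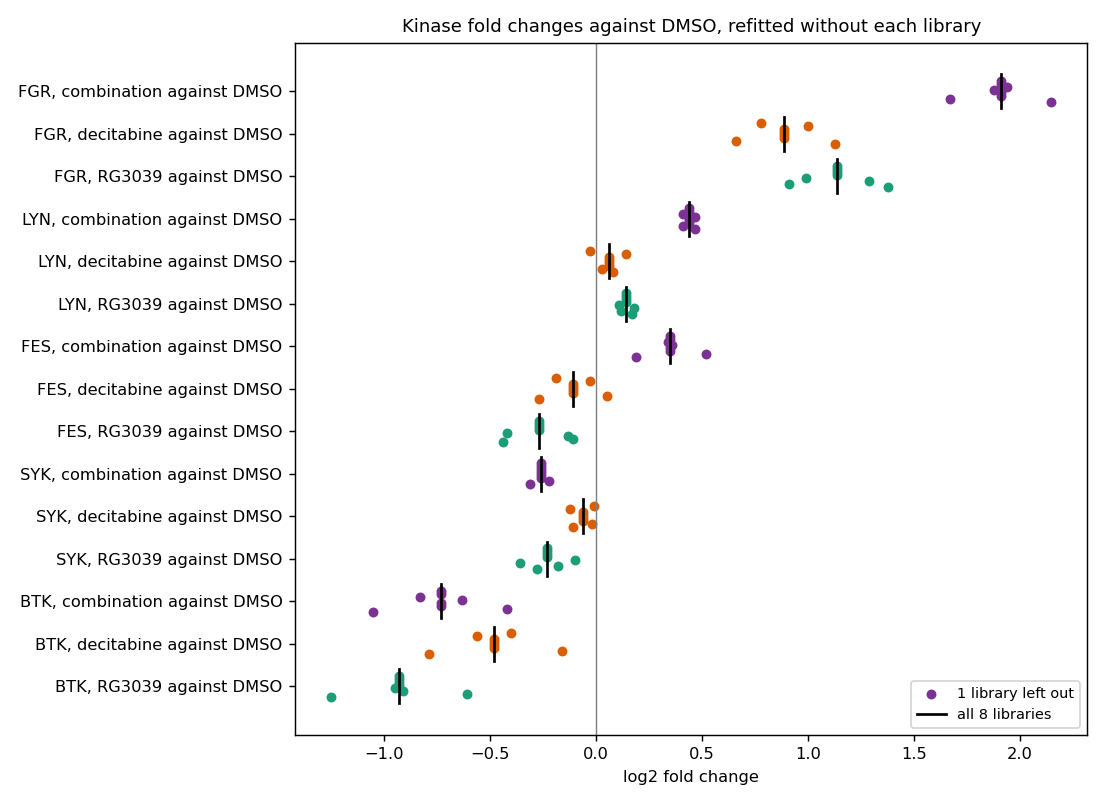
Log2 fold changes (x axis) of the 5 kinases in the combination, decitabine and RG3039 groups against DMSO when each of the 8 libraries is left out in turn (points), with black lines for the fit to all 8 libraries. FGR in the combination against DMSO lies between 1.67 and 2.15, and the points of BTK with RG3039 spread from -1.25 to -0.61.

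Over the 8 libraries, log2 values of FGR and LYN had a Pearson r of 0.90 and those of SYK and BTK 0.76, while FGR had r = -0.79 with BTK and -0.83 with SYK. FES was less tied to the others, from -0.31 with SYK to 0.67 with LYN. These coefficients describe 8 libraries in 4 treatment groups that share their normalisation. The highest of many coefficients over 8 libraries are high by selection, and shared regulation was not tested. A search of 10932 other genes with a mean of at least 100 gave the nearest profiles. For FGR they were ASB2 (r = 0.993), PTGS2 (0.991) and FZR1 (0.991). ASB2 had 368 and 493 normalised reads in the combination, 60.4 and 90.5 under decitabine, 94.6 and 155 under RG3039 and 15.2 and 8.28 in DMSO. For LYN the nearest were IL10RA (0.988), CD300C (0.982) and FGD4 (0.981), for FES MIGA2 (0.982), BIK (0.961) and FLT3LG (0.958), for SYK TMEM144 (0.991), TEX30 (0.981) and SEC24C (0.973), and for BTK SATB1 (0.982), the mitochondrial pseudogene MTATP8P1 (0.969) and SFT2D2 (0.965).

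Of the SRC-family relatives named here, only SRC itself was called. SRC, the founding member, had 136 and 115 normalised reads in the combination, 16.4 and 28.4 under decitabine, 36.5 and 44.3 under RG3039 and 13.8 and 7.64 in DMSO. SRC lay near the floor in DMSO, so the size of its differences from DMSO is uncertain. It rose with the combination against DMSO (3.48 ± 0.53, limma adjusted p = 0.00162), a call kept without each library, and against decitabine (2.48 ± 0.53, adjusted p = 0.0231). The call against decitabine was lost without either combination library (adjusted p = 0.158 and 0.116) and without either decitabine library (0.12 and 0.0507). YES1 and FYN gave 0.07 ± 0.30 and 1.04 ± 0.46 in the combination against DMSO (limma adjusted p = 0.902 and 0.138), and FRK was tested but had at most 29.7 normalised reads. LCK, the kinase of T cells, had at most 11.7, and BLK, the kinase of B cells, was listed at 0 in all 8 libraries.

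FER, the other kinase of the FES family, had 114 and 154 in the combination, 314 and 229 under decitabine, 82.0 and 78.5 under RG3039 and 239 and 255 in DMSO. FER fell with RG3039 (-1.61 ± 0.29, limma adjusted p = 0.00961), a call lost without DMSO replicate 2, RG3039 replicate 1 or RG3039 replicate 2 (adjusted p = 0.0636, 0.0536 and 0.062) or with only the groups compared (0.0504). With the combination its difference was -0.89 ± 0.29 at adjusted p = 0.0495, and that call was kept in 0 of 8 fits that left out a library. It was also lost under all 6 other settings, at adjusted p = 0.0507 with TMM scaling, 0.0512 with a pseudocount of 5 and 0.056 with the replicate block. ZAP70, the T-cell counterpart of SYK, had at most 5.30 normalised reads and was not tested. TEC, which gave the family of BTK its name, was at 77.3 and 75.9 in the combination, 139 and 141 under decitabine, 68.7 and 65.5 under RG3039 and 89.8 and 134 in DMSO (-0.51 ± 0.33 in the combination against DMSO, adjusted p = 0.301). TXK and BMX were not called in any of the 6 comparisons.

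The genes around the kinases were grouped in 7 lists of 114 symbols, of which 103 were tested. With the combination against DMSO 33 rose and 10 fell, which is 32% and 9.71% of those tested, beside 11.4% and 12.7% of all genes. Their median difference was 0.44, beside 0.04 over all genes. RG3039 alone had 15 higher and 6 lower (14.6% and 5.83%, beside 4.53% and 3.59% of all genes, median 0.20), and decitabine alone 3 higher, namely LAT, DOK2 and PILRA, and 0 lower (2.91% and 0%, beside 1.74% and 0.405%, median 0.18). The decitabine call of PILRA was lost without any 1 of the 8 libraries and that of DOK2 in 5 of 8 such fits, with adjusted p values up to 0.149 and 0.11. Against decitabine the combination had 17 higher and 4 lower (16.5% and 3.88%, beside 3.94% and 3.39%), the lower ones being HCST, FCGR1A, FLT3 and KIT. Against RG3039 it had 7 higher and 1 lower (6.8% and 0.971%, beside 1.49% and 0.787%), the lower one being LAT2. The decitabine shares, and the lower shares against DMSO, decitabine and RG3039 in the combination, are near those of all genes. In the interaction limma called 0 (9 at an unadjusted p under 0.05). The lists were chosen with earlier results of these data known, so these shares and those of each list below are descriptions. The lists were not tested as sets.

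**Figure D4:**
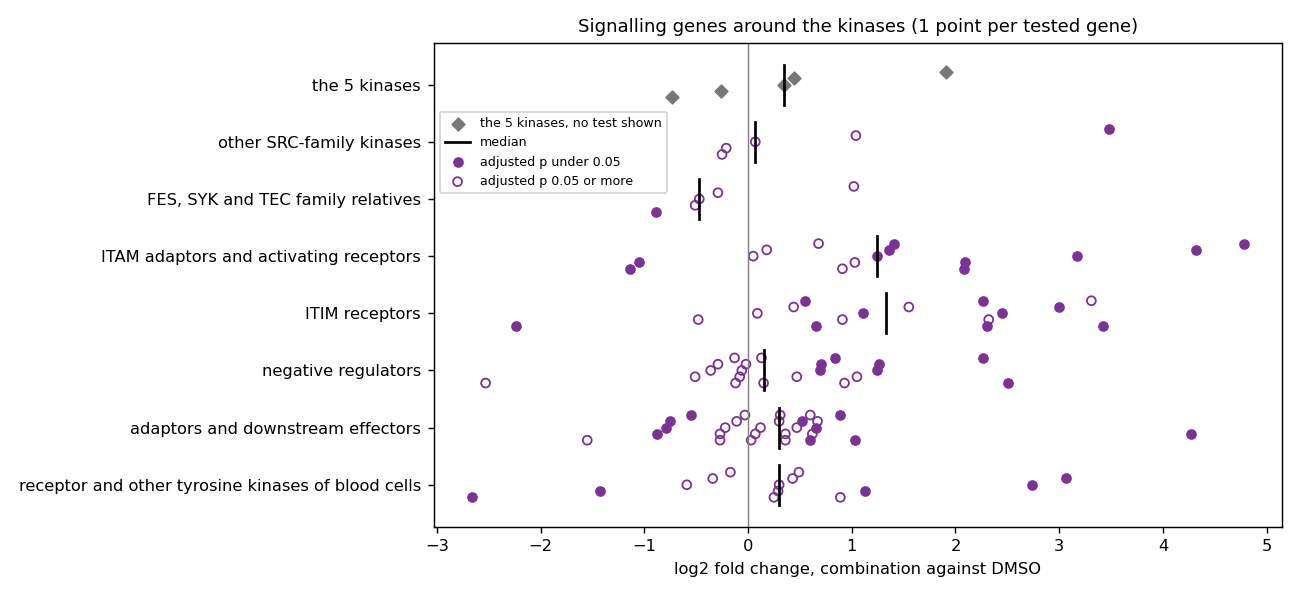
Log2 fold changes with the combination against DMSO (x axis) of the 5 kinases and of the tested genes in each of the 7 lists, 1 point per gene. Filled circles have an adjusted p under 0.05, grey diamonds are the 5 kinases, and black lines are medians. The medians of the ITAM and ITIM lists lie at 1.24 and 1.33, and those of the other lists between -0.47 and 0.30.

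ITAM adaptors and activating receptors, the partners through which SRC-family kinases and SYK signal, moved mostly upward with the combination. Of 15 tested, 8 rose and 2 fell (53.3% and 13.3%, beside 11.4% and 12.7% of all genes, median 1.24). FCER1G, the Fc receptor gamma chain, had 2879 and 3146 normalised reads in the combination, 1254 and 1500 under decitabine, 1858 and 1983 under RG3039 and 1088 and 1176 in DMSO. It rose with the combination by 1.41 ± 0.16 (limma adjusted p = 0.000322), and TYROBP, which encodes the adaptor DAP12, by 1.36 ± 0.17 (adjusted p = 0.000626). TREM1, a DAP12-coupled receptor of neutrophils and monocytes, stood at 884 and 790 in the combination, 60.6 and 143 under decitabine, 455 and 387 under RG3039 and 55.5 and 15.4 in DMSO. TREM1 rose with the combination (4.78 ± 0.55, adjusted p = 0.000415) and with RG3039 (3.79 ± 0.55, adjusted p = 0.00364). These calls were kept without each of the 8 libraries.

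The ITAM list also held genes that fell, at a share near that of all genes. HCST, the adaptor DAP10, which carries no ITAM and signals through phosphoinositide 3-kinase, had 354 and 424 in the combination, 956 and 1121 under decitabine, 230 and 305 under RG3039 and 759 and 855 in DMSO. It fell with RG3039 (-1.60 ± 0.22, limma adjusted p = 0.00244), as did the high-affinity Fc receptor gene FCGR1A (-1.36 ± 0.19, adjusted p = 0.00335). Both fell with the combination too, HCST by 1.05 and FCGR1A by 1.14 on the log2 scale (adjusted p = 0.0071 and 0.00292). FCGR1A has near-identical copies and overlaps a histone gene at its 3′ end, so its level is uncertain. CD3E and CD79A, which were higher with the combination, are markers of T and B cells and lie outside the naming rule. CD79A gave 2.08 ± 0.56 (limma adjusted p = 0.0248). CD3E had group means of 67.8 in the combination, 14.1 with decitabine, 7.19 with RG3039 and 2.27 in DMSO. It passed the filter at a mean of 10 through the combination and lay near the floor in DMSO. Its difference (4.32 ± 0.85) is therefore a description, though CD3E is included in the counts of called list genes above. The 6 T and NK cell markers summed to 136 and 274 in the combination, 205 and 238 under decitabine, 34.9 and 57.4 under RG3039 and 109 and 145 in DMSO. Of 3 tested, 2 (CD3D and CD3E) were higher and 1 lower in the combination against DMSO, beside 11.4% and 12.7% of all genes. CD3D also lay near the floor in DMSO, with a mean of 3.77 against 82.8 in the combination. This count is therefore a description too. The 5 B cell markers summed to 163 and 196 in the combination, 198 and 159 under decitabine, 118 and 123 under RG3039 and 124 and 50.5 in DMSO. Of 3 tested, 1 was higher in the combination against DMSO, beside 11.4% of all genes. The part of these T, NK and B cell markers in the results was not tested.

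ITIM receptors, which LYN phosphorylates in myeloid cells, moved mostly upward as well. With the combination 8 of 16 tested rose and 1 fell (50% and 6.25%, beside 11.4% and 12.7% of all genes, median 1.33). The 1 that fell was LILRB4 (-2.24 ± 0.61, limma adjusted p = 0.025), named after its value was seen. With RG3039 6 rose and 0 fell (37.5% and 0%, beside 4.53% and 3.59% of all genes, median 0.79). PILRA, a paired inhibitory receptor, had 818 and 935 in the combination, 199 and 172 under decitabine, 568 and 517 under RG3039 and 81.6 and 80.1 in DMSO. It rose with the combination (3.42 ± 0.22, limma adjusted p = 2.35e-05) and with RG3039 (2.73 ± 0.22, adjusted p = 0.000372), and both PILRB (mean 197 over the 8 libraries) and a read-through transcript of that locus (mean 862) overlap it on the same strand, so its level is uncertain. PECAM1, an adhesion molecule with ITIMs, had 3085 and 3460 in the combination, 565 and 821 under decitabine, 1633 and 1875 under RG3039 and 608 and 582 in DMSO (2.45 ± 0.20 with the combination, adjusted p = 8.03e-05). Both rose against decitabine too, PECAM1 by 2.26 ± 0.20 and PILRA by 2.23 ± 0.22 (adjusted p = 0.000829 and 0.00105). LILRB3 rose with the combination (2.30 ± 0.32, adjusted p = 0.00101), but it has close paralogs and overlaps the abundant ribosomal protein gene RPS9 on the other strand at its 3′ end, with the strand setting not given in the sources used here.

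Of 21 tested negative regulators 7 rose and 0 fell with the combination (33.3% and 0%, beside 11.4% and 12.7% of all genes, median 0.15). PTPRC, the phosphatase CD45 that both primes and restrains SRC-family kinases, had 7341 and 8067 in the combination, 4176 and 4829 under decitabine, 3985 and 4271 under RG3039 and 3083 and 3430 in DMSO. It rose with the combination by 1.24 ± 0.14 (limma adjusted p = 0.000367). DOK2, a docking protein that dampens tyrosine kinase signals, rose by 2.27 ± 0.22 (adjusted p = 0.000172), and PTPN22, a phosphatase that works with CSK, by 1.26 ± 0.17 (adjusted p = 0.000946). These 3 calls were kept without each library. CSK, the kinase that locks SRC-family kinases in their inactive form, had 762 and 749 in the combination, 897 and 815 under decitabine, 992 and 847 under RG3039 and 963 and 978 in DMSO, and was not called (-0.36 ± 0.17 with the combination, adjusted p = 0.151). The phosphatase SHP-1 gene PTPN6 gave 0.13 ± 0.19 (adjusted p = 0.678). CSK and PTPN6 lie outside the naming rule and were picked for their role after their values were seen.

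With the combination 6 of 27 tested adaptors and effectors rose and 4 fell (22.2% and 14.8%, beside 11.4% and 12.7% of all genes, median 0.30), those that fell being LAT2, VAV1, GRB2 and SKAP2. LAT, an adaptor phosphorylated by SYK-family kinases, had 1502 and 1855 in the combination, 471 and 510 under decitabine, 397 and 463 under RG3039 and 76.6 and 95.1 in DMSO. It rose with each treatment, by 4.27 ± 0.22 with the combination, 2.51 ± 0.22 with decitabine and 2.32 ± 0.22 with RG3039 (limma adjusted p = 7.07e-06, 0.000573 and 0.000701). A transcript annotated on the same strand (mean 348 over the 8 libraries) overlaps LAT, so the level of LAT is uncertain. Its myeloid relative LAT2 was lower with the combination, at 2348 and 2651 in the combination against 4372 and 4233 in DMSO (-0.79 ± 0.13, adjusted p = 0.00299). VAV1, a Rac exchange factor downstream of SYK, fell with RG3039 (-1.15 ± 0.17, adjusted p = 0.00362), and PRKCB, a protein kinase C gene that BTK signalling engages in B cells, rose with RG3039 (0.80 ± 0.12, adjusted p = 0.00463), a call lost without the mean-variance trend (adjusted p = 0.0542). GAB2, a scaffold for phosphoinositide 3-kinase, rose with the combination (1.03 ± 0.19, adjusted p = 0.00381).

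Among 14 other tyrosine kinases tested, 3 rose (CSF1R, MERTK and IGF1R) and 2 fell with the combination (21.4% and 14.3%, beside 11.4% and 12.7% of all genes, median 0.30). FLT3, a receptor of early progenitors, had 53.4 and 45.9 in the combination, 397 and 296 under decitabine, 37.9 and 34.0 under RG3039 and 281 and 362 in DMSO. It fell with RG3039 (-3.12 ± 0.31, limma adjusted p = 0.000757) and with the combination (-2.66 ± 0.31, adjusted p = 0.000425), and both RG3039 groups lay far below the groups without it. The stem cell factor receptor gene KIT fell with RG3039 (-1.48 ± 0.21, adjusted p = 0.00309) and with the combination (-1.43 ± 0.21, adjusted p = 0.00131). CSF1R, the receptor of the macrophage growth factor, had 141 and 202 in the combination, 52.6 and 59.2 under decitabine, 10.7 and 27.9 under RG3039 and 19.7 and 30.2 in DMSO. Its rise with the combination (2.74 ± 0.53, adjusted p = 0.00561) was lost without combination replicate 2 (adjusted p = 0.0545).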

How the data were processed

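RNA of 8 HL-60 libraries (QuantSeq 3′ tags, single-end) was analysed from 1 deposited table. It holds 1 signal value per gene, a normalised read count as deposited by the authors. The submitters' processing notes name DESeq2, featureCounts, limma, STAR and Salmon 1.2.1, and the build hg38, with no role for any of them. All 8 libraries shared a median ratio of 1.01 to the per-gene geometric mean. Low values were whole multiples of the value of 1 read (tolerance 0.02) for 74.4% to 80.8% of genes, so no count test was run. Dividing the total by that value gave the estimated depth.

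Genes with a mean of at least 10 were fitted as log2(value + 1) by lmFit and eBayes of limma 3.58.1 (R 4.3.3), with the mean-variance trend, on all 8 libraries, with 4 residual and 5.51 prior degrees of freedom, in 6 contrasts. The fit was tested on simulated data with known fold changes. The members and lists were chosen with earlier results of these data known. Genes to be named were the 5 kinases, the list genes with the 3 smallest p among those called in each list and contrast, all relatives in the first 2 lists, and the 3 nearest profiles of each kinase. A few of these genes are not reported here. Alternatives were TMM scaling, a pseudocount of 5, no filter, no trend, only the groups compared, a replicate block and leaving out each library, with the tested genes held fixed in the last. Gene positions are from GENCODE 29 and promoter windows from RefSeq (GRCh38.p14), found for 4 of the 5 kinases. Same-numbered replicates did not deviate together in all pairs (correlations -0.0767 to 0.161), so the numbers were not taken to pair the samples. Plots were drawn with matplotlib 3.10.9.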

Additional observations from a re-analysis of the deposited data

How the results depend on the processing

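Of the called differences of the 5 kinases, 0 changed direction under any alternative, which says little because called differences lie well away from 0. Some that were not called changed sign when 1 library was left out. LYN with decitabine ran from -0.03 to 0.14 and FES with decitabine from -0.27 to 0.05. For the combination against RG3039, SYK ran from -0.16 to 0.09. Without the mean-variance trend the number of called kinases was 0 with RG3039, 1 with the combination against DMSO and 0 for the combination against decitabine. It was 1 and 1 with RG3039 and the combination against DMSO without the filter on low values, and 0 and 1 with only the groups compared. TMM scaling and a pseudocount of 5 left each of the 5 kinases on its side of the threshold. Genes called over the whole table, in the order decitabine, RG3039 and combination against DMSO, combination against decitabine, and combination against RG3039, numbered 376, 1424, 4221, 1286 and 399. Without the trend they numbered 210, 718, 2847, 432 and 147. With only the groups compared, 105 were called for decitabine and 481 for RG3039, and without the filter 225 for decitabine and 213 for the combination against RG3039. Signalling list genes without the trend numbered 10 for RG3039, 27, 9 and 2 for the combination against DMSO, decitabine and RG3039. With only the groups compared they numbered 1 for decitabine and 11 for RG3039. The cause of these changes was not tested.

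With the replicate block, 5 list genes were called with decitabine. Over the whole table it gave more calls in each comparison of 2 groups. They numbered 525 for decitabine, 1690 for RG3039 and 4619 for the combination against DMSO. For the combination against decitabine and against RG3039 they numbered 1678 and 688. The block changed no call of the 5 kinases. Leaving out 1 library at a time (the remaining library of that group then borrows its spread from the others) gave 79 to 495 genes for decitabine, 496 to 1263 for RG3039, 2133 to 4075 for the combination against DMSO, 305 to 1391 for the combination against decitabine, 21 to 454 for the combination against RG3039 and 0 to 2 for the interaction. Called kinases ranged from 0 to 1, 0 to 2, 1 to 2, 0 to 1, 0 to 0 and 0 to 0 in the same order, and list genes from 1 to 3, 10 to 20, 25 to 41, 7 to 23, 0 to 9 and 0 to 0. Of 56 list gene calls within the naming rule, 32 were kept without each of the 8 libraries. Groups of 2 wells limit what could be called. The median standard error on the log2 scale was 0.322 for a comparison of 2 groups and 0.456 for the interaction.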
